A study of Mus musculus with 14 samples.

Results

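Cytosolic ribosomal protein genes were taken from RNA-seq counts of isolated mouse colon epithelium as the protein-coding genes whose symbols are Rpl or Rps with a number, together with Rpsa, Rplp0, Rplp1 and Rplp2. Of 37680 genes in the count table, 83 matched, namely 44 genes of the large subunit, 31 of the small subunit, 7 paralogs with a gene of their own (Rpl3l, Rpl7l1, Rpl10l, Rpl22l1, Rpl39l, Rps27l and Rps4y2) and Rpl34. Rpl34 was treated apart, since its reads fell on its own gene in some libraries and on a processed pseudogene in others, which leaves 82 genes. Of these, 79 passed the filter of at least 10 counts in at least 3 libraries. Rpl3l, the striated muscle paralog of Rpl3, had at most 5 counts in a library, and Rpl10l and Rpl39l, paralogs known from the male germ line, had 0 counts in every library. Rpl41 has no entry in the table.

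The 14 libraries came from colon crypt epithelium released with EDTA from adult wildtype (WT) and Smad4 knockout mice, called KO here. Smad4 is the shared transcriptional partner of the TGF-β and BMP receptor SMADs. The KO mice carried floxed Smad4 (Smad4 f/f) and the Villin-CreERT2 transgene, whose villin promoter limits the tamoxifen-inducible Cre to the intestinal epithelium, and tamoxifen was injected to delete the gene. The study's methods name the transgene for mutants and controls, the labels call the controls wildtype, and whether the controls received tamoxifen was not given in the sources used here. There were 4 WT and 4 KO libraries from mice on plain drinking water, and 3 WT and 3 KO libraries from mice given 2.5% dextran sulfate sodium (DSS), which injures the colon epithelium, for 3 d in drinking water.

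Each cytosolic ribosome is built of ribosomal RNA and of a set of small, mostly basic proteins, divided between a small subunit that reads the mRNA and a large subunit that joins amino acids. The mRNAs of these proteins are among the most abundant of dividing cells, and nearly all begin with an oligopyrimidine tract through which mTORC1 and the La-related protein Larp1 control their translation together. In the colon, crypt base cells divide throughout life, and their demand for protein synthesis is met by making new ribosomes.

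Total counts ran from 12882827 to 26087231 per library. The library labelled KO water replicate 1 went against its label, with a Smad4 level of 182 CPM (counts scaled to library size, here to nuclear counts), in the WT range of 128 to 199, while the other 6 KO libraries had 38.8 to 54.8. It stayed in the KO group as labelled, and the counts and medians of the comparisons that use it are also given without it. The study's figure legends give 3 replicates for KO on water, where the sample labels give 4. The legends do not name the replicates used. WT water replicates 3 and 4 and KO water replicate 4 stood apart in mitochondrial transcripts, with 30.6%, 32.8% and 21.4% of all counts, against 4.05% to 8.23% in the other 11 libraries. Epithelial markers (Epcam, Cdh1, Vil1 and 4 others) summed to 11918 to 19264 CPM (scaled by TMM, edgeR's trimmed mean of M-values). Lists of fibroblast, smooth muscle, endothelial, myeloid and lymphoid markers each summed to at most 37.8 CPM in any library.

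Runs of C or T lie near the annotated transcript start of many of these genes. Such a run was not required to begin at the start, so a gene with one need not have an oligopyrimidine tract. The longest runs of Rpl10 and Rps2, for example, begin 40 bases after the start. RefSeq promoter sequences (GRCm38.p6) were found for 61 of the 83 genes. A run of at least 8 bases that are each C or T, searched on the gene's own strand from 30 bases before to 50 bases after the annotated start, was present in 48 of the 61 genes (78.7%) and in 32.3% of all 27025 genes with a promoter sequence. The windows below belong to 4 genes that fell in KO on water (Rpl28, Rpl35, Rpl13a and Rpl18) and to Rpl7a, which did not pass the test. The capitals mark the longest run, and the windows lie at chr7:4792958-4792987 (plus strand), chr2:39005113-39005142 (minus), chr7:45128718-45128747 (minus), chr7:45718068-45718097 (plus) and chr2:26910789-26910818 (plus).
Rpl28: cgtgTCTCTCTTTCCgtctccggccgccat
Rpl35: cccgCCCTTTCCTCTTTCTCTCgaaccagg
Rpl13a: aagaCCTCCTCCTTTCCCaggcggctgccg
Rpl18: gccgCTCTTTCCCCgcccactccggcgcgg
Rpl7a: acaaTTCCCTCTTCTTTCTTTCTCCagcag
In KO against WT on water, the median log2 fold change was -0.72 over the 45 tested genes with such a run and -0.65 over the 12 without one. Both medians lay within the quartiles of all 79 tested genes given below.

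Ribosomal protein transcripts were abundant in every library. Per kilobase of exon, the 79 genes had a median level of 418 CPM, against 5.34 over all 15127 genes tested. The highest were Rplp1, a phosphoprotein of the stalk that recruits elongation factors, at 2856 CPM per kilobase, Rps26 at 1943, Rpl32 at 1325, Rps15 at 1318 and Rps27 at 1288. The lowest were the paralogs Rps4y2 at 17.9 CPM per kilobase and Rpl7l1, a nucleolar relative of Rpl7, at 30.9. Rps15a at 62.1, Rpl24 at 79.3 and Rpl30 at 83.3 followed. These ranks depend on the annotation, since the length is that of all annotated exons joined. It is 6262 bases for Rps15a, 6029 for Rpl24 and 3020 for Rpl30, against 345 to 652 for the 5 highest. Before division by length, Rps15a was at 264 to 644 CPM and Rps27 at 199 to 676 CPM. Rpl30 also shared counts with copies. Between the lowest and the highest library the median span of the 79 genes was 3.48-fold, and the spans differed. Rpl7l1 ran from 26.9 to 34.9 CPM per kilobase, and Rps2, which also shared counts with copies, from 9.25 to 458.

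The 82 genes together held more of the counts in WT on water than in the other groups. Their share of nuclear counts (all counts outside the mitochondrial genome) was 6.41%, 6.06%, 8.33% and 9.999% in the 4 WT water libraries. In the 4 KO water libraries it was 5.43%, 4.88%, 3.43% and 6.06%. After DSS it was 4.83%, 5.61% and 4.38% in WT and 6.10%, 4.56% and 5.26% in KO. All KO water libraries lay below all WT water libraries, although the highest KO library and the lowest WT library were nearly equal (6.057% and 6.060%). Both WT water libraries of high mitochondrial share, replicates 3 and 4, were also the highest in ribosomal protein share, and KO water replicate 4 was the highest of its group. As a share of all counts, mitochondrial ones included, the WT water libraries held 5.67% to 6.72% and the KO water libraries 3.26% to 5.16%. Values with the mitochondrial share as a covariate are given with the tests.

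**Figure D1:**
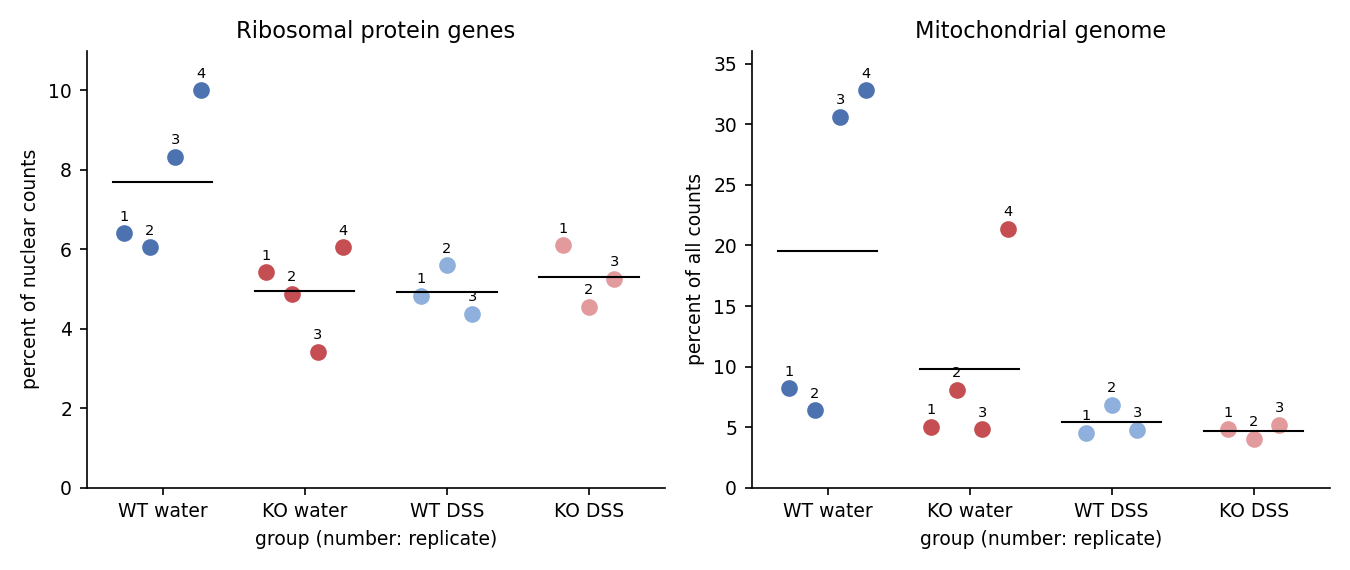
Left, percent of nuclear counts held by the 82 ribosomal protein genes in each of 14 libraries, and right, percent of all counts from the mitochondrial genome. Points are libraries with their replicate numbers, and lines are group means. WT water replicates 3 and 4 are the highest in both panels.

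Nearly all ribosomal protein genes had lower estimates in KO than in WT epithelium on water, and a part of them passed the test. Of the 79 genes, 21 were called, all lower, at an adjusted p under 0.05 in edgeR's quasi-likelihood test (Benjamini-Hochberg over all genes tested), namely 16 of 44 large subunit genes, 5 of 31 small subunit genes and none of the 4 paralogs. Over all 15127 genes 8.44% were called, and 3.6% were called lower. The log2 fold change was negative for 78 of the 79 genes, with a median of -0.70, against -0.01 over all genes tested. The quartiles of the 79 genes were -0.84 and -0.50, against -0.36 and 0.33 over all genes tested. A further 32 genes had an adjusted p from 0.05 to 0.10. In 34 genes all 4 KO libraries lay below all 4 WT libraries, which was so for 5.2% of all genes, and 17 of the 21 called genes were among them. In bulk RNA, fewer cells of a type and less of an mRNA per cell cannot be told apart.

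Among large subunit proteins, Rpl36 fell most of the called genes. Its CPM was 555, 561, 867 and 1073 in the WT water libraries and 430, 290, 160 and 444 in the KO water libraries. The groups did not overlap, and the log2 fold change was -1.21 ± 0.29 (SE, n = 4 and 4, adjusted p = 0.031 in edgeR). After DSS its level was 367, 515 and 372 CPM in WT and 488, 348 and 387 CPM in KO, which puts every DSS library below every WT water library. Rpl32, one of the most highly expressed members per kilobase, was at 758, 771, 1020 and 1209 CPM in WT and 604, 475, 358 and 593 CPM in KO on water. Its log2 fold change was -0.89 ± 0.20, with the lowest adjusted p of the members (0.028 in edgeR).

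Rpl11, which with Rpl5 and a small ribosomal RNA forms the particle that binds Mdm2 when ribosome assembly is disturbed, was at 646, 712, 733 and 871 CPM in WT and 548, 364, 292 and 531 CPM in KO on water. The groups did not overlap, and its log2 fold change was -0.77 ± 0.19 (adjusted p = 0.033 in edgeR). Its partner Rpl5 did not overlap either, at 887 to 1835 CPM in WT and 645 to 885 CPM in KO, with a log2 fold change of -0.71 ± 0.23 and an adjusted p of 0.059 in edgeR. Rpl13a, known for its release from the ribosome in interferon-treated cells, had a log2 fold change of -0.96 ± 0.24 (adjusted p = 0.032 in edgeR), with 1564 to 2733 CPM in WT and 640 to 1428 CPM in KO. Rpl28 had a log2 fold change of -1.19 ± 0.30 (adjusted p = 0.033 in edgeR), and its groups did not overlap.

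**Figure D2:**
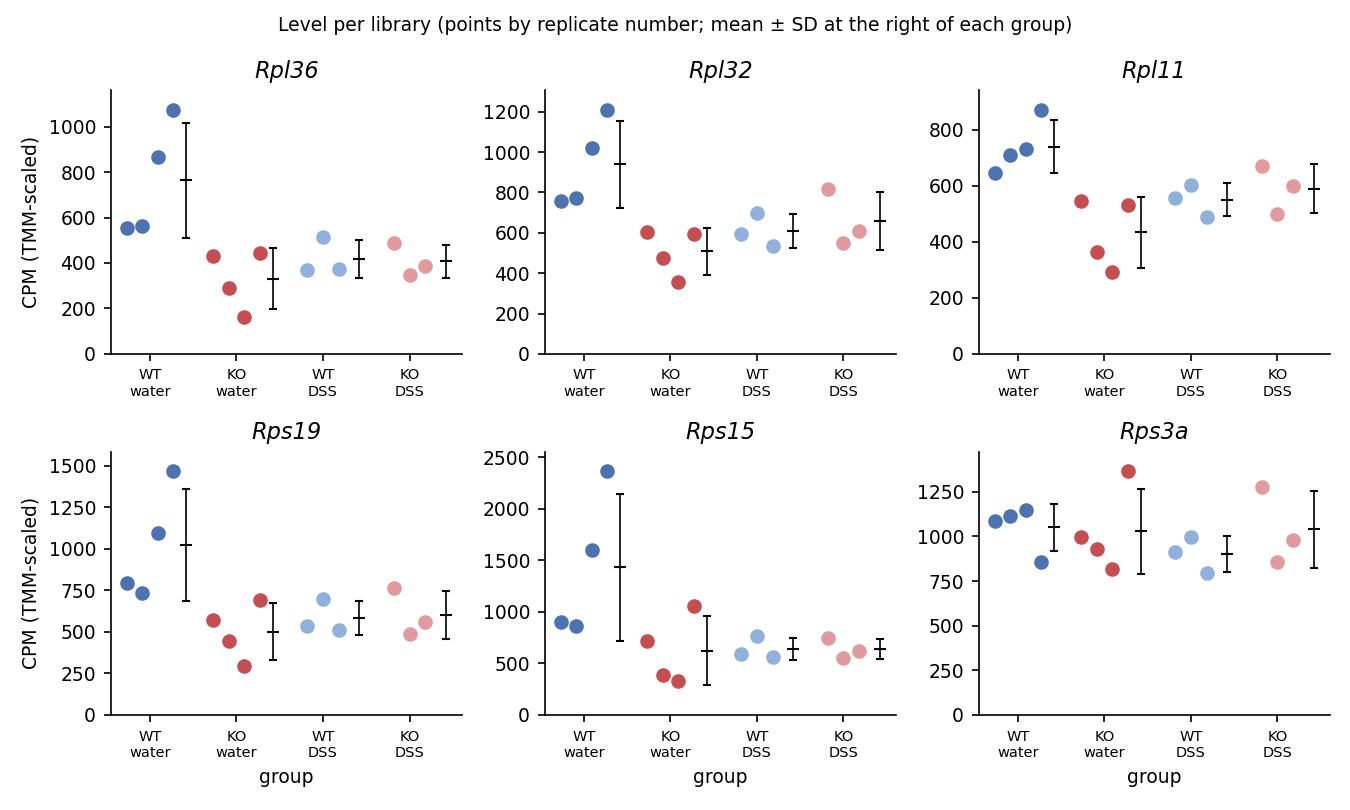
TMM-scaled CPM of 6 ribosomal protein genes in each of 14 libraries, with points in the order of replicate number and the mean ± SD at the right of each group (n = 4, 4, 3 and 3). Rpl36, Rpl32, Rpl11 and Rps19 do not overlap between WT and KO on water, Rps15 overlaps through KO water replicate 4, and Rps3a has a log2 fold change of -0.03 (-0.25 with copies added).

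Among small subunit proteins, Rps15, Rps28, Rps19 and Rps20 were among those called lower in KO on water. Rps19, a small subunit protein mutated in Diamond-Blackfan anaemia, was at 796, 733, 1097 and 1469 CPM in WT and 570, 447, 295 and 693 CPM in KO, with a log2 fold change of -1.03 ± 0.26 (adjusted p = 0.035 in edgeR). Rps28 was at 382, 424, 504 and 541 CPM in WT and 302, 159, 77.5 and 294 CPM in KO (log2 fold change -1.15 ± 0.31, adjusted p = 0.038 in edgeR). In both genes all KO libraries lay below all WT libraries. Rps15 overlapped, since KO water replicate 4 (1056 CPM) was above WT water replicates 1 and 2 (899 and 859 CPM), and its log2 fold change was -1.20 ± 0.36 (adjusted p = 0.049 in edgeR, and 0.062 without the library labelled KO water replicate 1).

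Other well-known small subunit genes did not pass the test on water. Rps6, the substrate of S6 kinase, had a log2 fold change of -0.44 ± 0.17 (adjusted p = 0.095 in edgeR), and Rps3, which lies at the mRNA entry channel, -0.51 ± 0.17 (adjusted p = 0.061). All KO libraries lay below all WT libraries in both. Rpsa, also known as the laminin receptor, had -0.89 ± 0.28 (adjusted p = 0.057), and Rps27a, made as a fusion with ubiquitin, had -0.52 ± 0.32 (adjusted p = 0.29). The stalk genes Rplp0, Rplp1 and Rplp2 had -0.66 ± 0.23, -0.69 ± 0.26 and -0.49 ± 0.29 (adjusted p = 0.076, 0.091 and 0.27 in edgeR). None of these stalk genes separated the groups completely.

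The members nearest to no change on water included 3 of the 4 tested paralogs. Rps4y2 had a log2 fold change of 0.23 ± 0.33 and was the only positive value, Rpl7l1 had -0.07 ± 0.11, Rps27l, a p53-induced paralog of Rps27, had -0.10 ± 0.23, and Rpl22l1 had -0.30 ± 0.20 (adjusted p from 0.34 to 0.79 in edgeR). Their partners Rps4x, Rpl7, Rps27 and Rpl22 had -0.47, -0.28, -0.35 and -0.63, and Rpl3, Rpl10 and Rpl39, the partners of the untested paralogs, had -0.25, -0.46 and -0.70. None of these partners passed the test (adjusted p from 0.058 to 0.52 in edgeR). The median over the 4 paralogs was -0.09, against -0.74 over large subunit genes and -0.66 over small subunit genes, and the difference of paralogs from the others was not tested. Among core genes, Rps3a (-0.03 ± 0.18) and Rpl3 (-0.25 ± 0.24) had the values nearest 0, but both shared reads with copies. Rps3a held 56.1% of the counts of itself and its copies in WT water replicate 4 and 98.7% to 99.2% in the other libraries, and Rpl3 held 62.5% to 93.8%. With copies added, the values were -0.25 ± 0.19 for Rps3a and -0.45 ± 0.17 for Rpl3, and Rpl7 was at -0.29 ± 0.16.

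**Figure D3:**
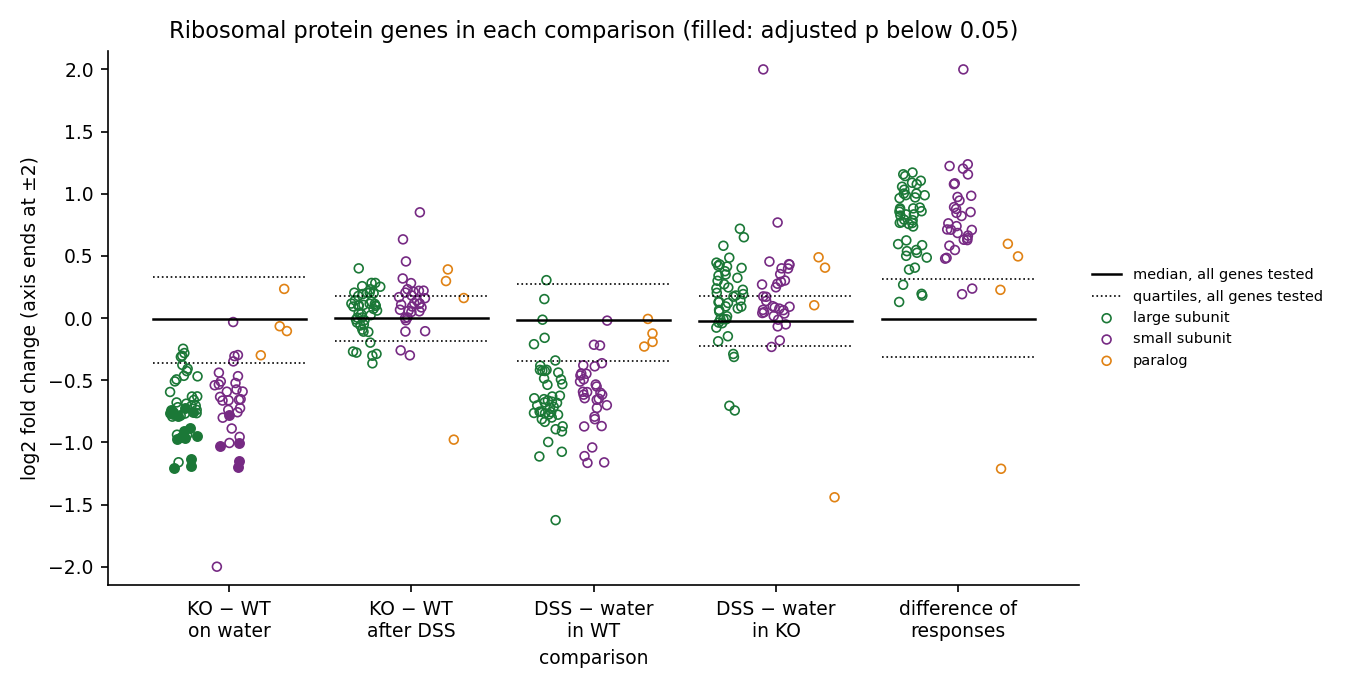
Log2 fold change of the 79 tested ribosomal protein genes in each comparison, by kind, with filled points for an adjusted p below 0.05 and lines for the median and quartiles of all 15127 genes tested. Rps2 lies beyond the axis in 3 comparisons and is drawn at its end. Filled points appear for KO against WT on water only.

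The calls in KO on water rested on a few libraries, and calls over all genes moved with them. Most members remained lower in the fits below. They also moved together over the libraries, so their shared direction is not a set of independent results. With every library, 61 members were lower and 0 higher at an unadjusted p under 0.05 in edgeR. Over all 15127 genes, 2113 were lower and 2323 higher at this p. Such counts over all genes are not reported here for the fits below. Without WT water replicate 4, the library with the highest mitochondrial share, 0 members were called in edgeR (45 at an unadjusted p under 0.05) and the median was -0.50. Without WT water replicate 3, KO water replicate 2 or KO water replicate 3, 0 were called too (58, 56 and 49 at an unadjusted p under 0.05), with medians of -0.67, -0.69 and -0.54. In these 4 fits 4, 545, 16 and 5 of all genes were called, against 1276 with every library. Without both WT water replicates 3 and 4, 0 were called (20 at an unadjusted p under 0.05) and the median was -0.38, with 76 of 79 genes negative. Without KO water replicate 1, the library with Smad4 in the WT range, 20 were called, 17 of the 21 among them. In this fit 1154 of all genes were called, and the median of the members was -0.71. Without KO water replicate 4, 57 were called, as were 4104 of all genes, and the median was -0.83. With the mitochondrial share as a covariate, 0 were called (37 at an unadjusted p under 0.05) and the median was -0.41. DESeq2 on only these 2 groups called 24 members, all lower (3.32% of genes), and edgeR on only these 2 groups called 0 (58 at an unadjusted p under 0.05).

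The library names begin with different letters, whose meaning was not given in the sources used here. Within the names starting with Z, the WT water library held 8.33% of nuclear counts in ribosomal protein genes and the KO water libraries 5.43% and 4.88%. Within those starting with MP, the WT water library held 9.999% and the KO water library 6.06%. Each of these 3 KO libraries was below the WT library of its letters. These WT libraries are water replicates 3 and 4, of high mitochondrial share (30.6% and 32.8%). The KO library at 5.43% is the one labelled KO water replicate 1, with Smad4 in the WT range. KO and WT water libraries share letters only here, so a fit with letters as a block takes its water difference from these libraries. With the letters as a block, 46 members and 2018 of all genes were called, and the median of the members was -0.70. Names starting with D hold WT and no KO among water libraries.

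Transcript length and base composition moved with the groups as well. Over 15106 genes, the rank correlation of a library's deviation from the gene mean with exon length ran from -0.29 to -0.10 in the WT water libraries. In the KO water libraries it was 0.15, 0.25, 0.38 and -0.17. The members are short, with a median exon length of 1464 bases against 3304 over all genes tested. With such trends of length and GC content removed from each library, the median of the members in KO against WT on water was -0.52, 76 of 79 genes were lower and 0 were called in edgeR (48 at an unadjusted p under 0.05).

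**Figure D4:**
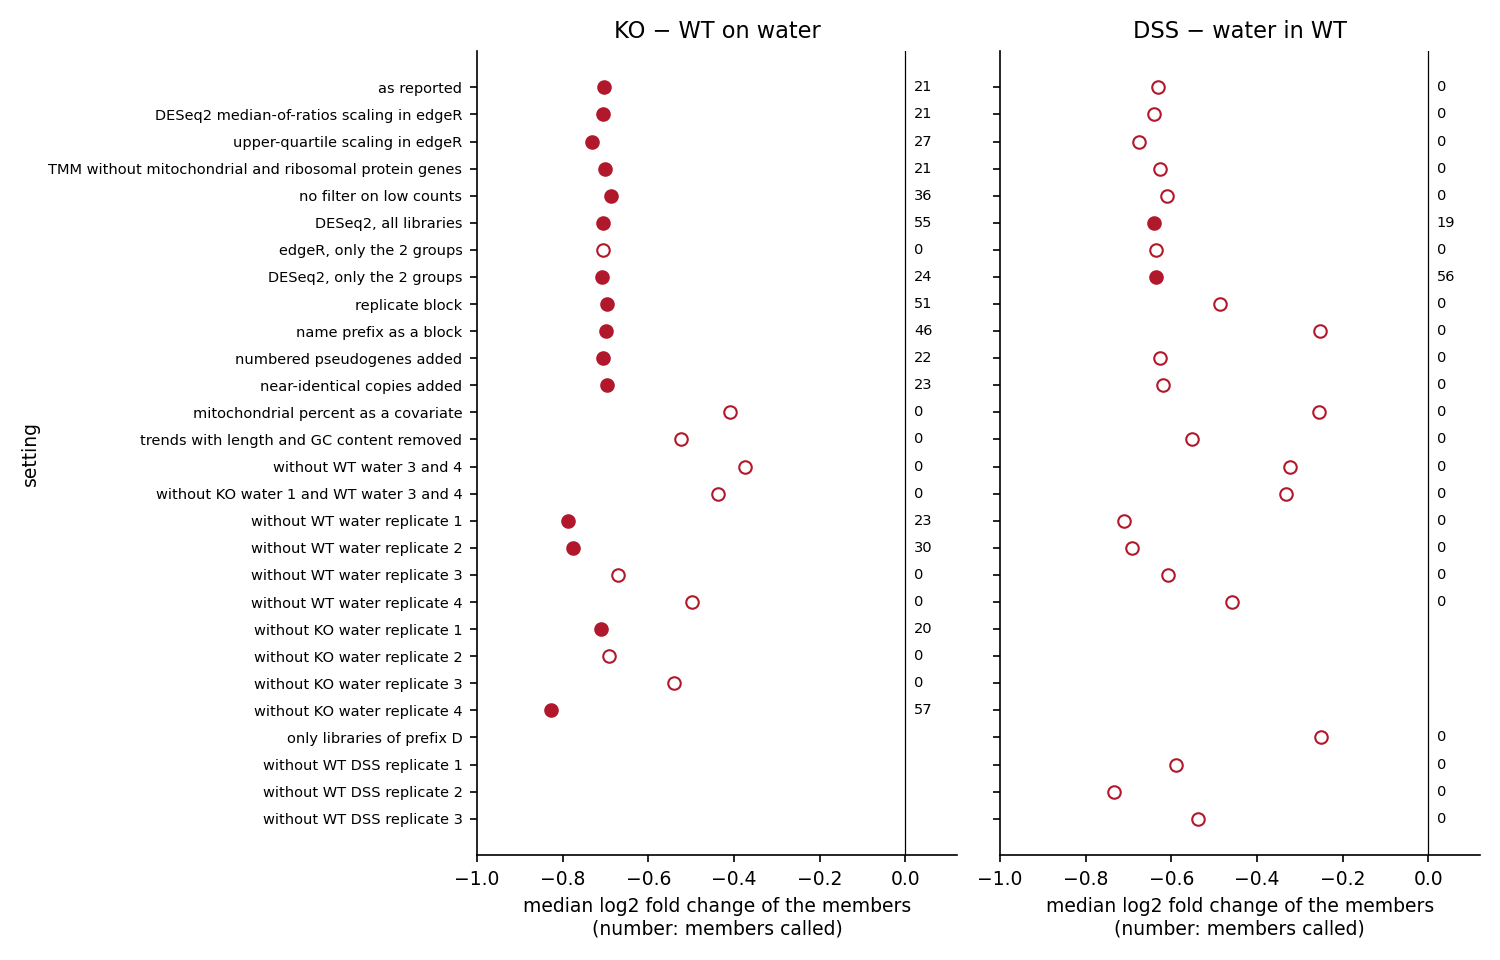
Median log2 fold change of the 79 members under each setting for KO against WT on water (left) and DSS against water in WT (right), with the number of members called printed at 0 and filled points where any was called. The median stays below 0 in every setting, from -0.83 to -0.38 on the left and from -0.73 to -0.25 on the right.

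In WT epithelium, ribosomal protein genes were lower after DSS than on water, but none was called in the fit of all libraries. The log2 fold change was negative for 77 of 79 genes with a median of -0.63, against -0.01 over all genes tested. At an unadjusted p under 0.05, 49 members were lower and 0 higher, against 1562 lower and 1612 higher of all 15127 genes. In 55 genes all 3 DSS libraries lay below all 4 water libraries, which was so for 11.6% of all genes. edgeR called 0 of all genes in this comparison (0%). DESeq2 on these 2 groups called 56 members, all lower, where it called 7.26% of genes lower. DESeq2 on all libraries called 19 members, all lower, and 851 of all genes.

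The largest decreases after DSS in WT were those of Rpl21, Rps15 and Rps12, none of which passed the test in edgeR. Rps12 was at 474, 443, 1008 and 1233 CPM on water and 329, 383 and 347 CPM after DSS in WT, without overlap (log2 fold change -1.16 ± 0.36, adjusted p = 0.12 in edgeR). Rps15 was at 587, 763 and 563 CPM after DSS, below all its water values given above (-1.17 ± 0.39, adjusted p = 0.14). In both, water replicates 3 and 4 stood far above replicates 1 and 2. The highest values of the members were those of Rpl30 (0.30 ± 0.40), Rpl7a (0.15 ± 0.26) and Rps27l (-0.01 ± 0.25). With near-identical copies added to each gene's counts, as described below for Rpl34, Rpl30 turned to -0.32 ± 0.28 and Rpl7a was at 0.03 ± 0.23. Rpl21 had -1.63 ± 0.57 (adjusted p = 0.14 in edgeR) with overlapping groups. It too shared counts with copies. Of the counts of Rpl21 and its copies, Rpl21 held 51.6% to 69.7% on water and 42.7% to 55.5% after DSS in WT. Its value with copies added is not reported here.

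The size of the DSS difference in WT depended on which water libraries it was set against. Without WT water replicates 3 and 4 the median was -0.32, with 0 members at an unadjusted p under 0.05. Among the libraries named with D alone, 2 on water and 2 after DSS, it was -0.25, with 75 of 79 genes lower and 4 at an unadjusted p under 0.05. With the mitochondrial share as a covariate it was -0.26, with 0 members at an unadjusted p under 0.05. The direction remained negative for at least 72 of the 79 genes in these 3 fits. Most members moved together over the libraries, as described below, so these counts of genes are not independent results.

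In KO epithelium, ribosomal protein genes were not detectably changed by DSS in edgeR, with 0 of 79 called where 0.0661% of all genes were called. The median was 0.14 (-0.02 over all genes tested) and 61 genes were positive. At an unadjusted p under 0.05 were 8 members (6 higher, 2 lower), against 580 higher and 691 lower of all 15127 genes. Rps29 had the highest value apart from Rps2, at 388, 358, 118 and 268 CPM on water and 631, 406 and 410 CPM after DSS (0.77 ± 0.30, adjusted p = 0.52 in edgeR). Its groups did not overlap. Rps4y2 had the lowest value, at 21.4, 11.0, 22.6 and 33.6 CPM on water and 8.37, 10.1 and 5.99 CPM after DSS (-1.44 ± 0.37, adjusted p = 0.32 in edgeR), and DESeq2 called it lower on all libraries (adjusted p = 0.018). DESeq2 on only these 2 groups called it too, and Rps2 higher, where it called 70 of all genes. Rpl35a (0.72 ± 0.30) was the next highest, and Rpl21 (-0.74 ± 0.55) and Rplp2 (-0.71 ± 0.32) the next lowest. Of the counts of Rpl21 and its copies, Rpl21 held 31.3% to 73.0% on water and 42.1% to 57.1% after DSS in KO. The KO water and KO DSS libraries share no name letters, so the letters and DSS cannot be told apart among the KO libraries alone. Without KO DSS replicate 1 the median was -0.01. Without the library labelled KO water replicate 1 the median was 0.18 and 0 members were called in edgeR (8 at an unadjusted p under 0.05).

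After DSS, no difference in ribosomal protein genes between KO and WT passed the test in edgeR. edgeR called 0 of 79 (0.0132% of all genes), and DESeq2 on all libraries also called 0 (51 of all genes). The median was 0.10 (0.00 over all genes tested) and 58 genes were positive. At an unadjusted p under 0.05 in edgeR was 1 member, Rps4y2, against 290 higher and 380 lower of all 15127 genes. The log2 fold change of Rps4y2 was -0.98 ± 0.38 (adjusted p = 0.98 in edgeR). DESeq2 on only these 2 groups called it lower (adjusted p = 0.00080), where it called 492 of all genes. Rps27a had the highest value apart from Rps2, 0.63 ± 0.37, and rested on KO DSS replicate 1, at 643 CPM where replicates 2 and 3 had 204 and 203 CPM. Rps2 (0.85 ± 1.30, turning to -0.06 ± 0.23 with copies added) and Rps15a (0.46 ± 0.23) were also among the highest, and Rplp2 (-0.36 ± 0.34) and Rpl28 (-0.30 ± 0.34) among the lowest. Without KO DSS replicate 1 the median of the members was -0.07.

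The difference of the DSS responses, KO minus WT, was positive for 78 of the 79 genes, with a median of 0.79 (-0.01 over all genes tested), but no member was called in edgeR or in DESeq2 on all libraries. In edgeR, 45 members had an unadjusted p under 0.05 (44 higher and 1 lower), against 526 higher and 609 lower of all 15127 genes. After adjustment, 0.00661% of all genes, a single gene, passed. That gene was Rpl34. Rps12 (1.24 ± 0.50), Rps20 (1.22 ± 0.44) and Rps15 (1.202 ± 0.54) had the largest values apart from Rps2 (5.08 ± 1.82), each with an adjusted p of 0.64 in edgeR, and Rps4y2 (-1.21 ± 0.50), Rplp2 (0.13 ± 0.45) and Rpl30 (0.18 ± 0.57) had the lowest. With copies added, the values were 0.80 ± 0.30 for Rps2 and 0.63 ± 0.40 for Rpl30. This difference uses the same WT water libraries as the comparisons above, and without WT water replicates 3 and 4 its median was 0.47. Without the library labelled KO water replicate 1 it was 0.83, with 0 members called in edgeR (46 at an unadjusted p under 0.05).

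Rpl34, a large subunit gene on the minus strand of chromosome 3 (mm9, 130429749 to 130433316), showed the largest apparent change of the members on water, for DSS in KO and for the difference of responses, ahead of Rps2. In the KO water libraries, nearly all counts of Rpl34 and its copies fell on the copies. Rpl34-ps1 is an unspliced copy on chromosome 6 (plus strand, 71074583 to 71074994) that differs from the Rpl34 transcript at 2 of 411 aligned bases, both in the coding part. The pairs below show both places, with the differing base in capitals. The Rpl34 windows lie at chr3:130431988-130432017 and chr3:130429815-130429844 and the Rpl34-ps1 windows at chr6:71074720-71074749 and chr6:71074906-71074935 of mm9.
Rpl34, place 1: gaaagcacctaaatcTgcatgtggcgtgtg
Rpl34-ps1, place 1: gaaagcacctaaatcCgcatgtggcgtgtg
Rpl34, place 2: aatcgttgtgaaagtCttgaaggcacaagc
Rpl34-ps1, place 2: aatcgttgtgaaagtGttgaaggcacaagc
A read that covers neither place is the same for the gene and its copy.

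Rpl34 had 6008, 4683, 3977 and 3843 raw counts in the WT water libraries and 147, 82, 85 and 164 in the KO water libraries. Rpl34-ps1 had 7109, 5274, 4734 and 5291 counts in WT on water and 9504, 9270, 6608 and 9990 in KO on water. After DSS, Rpl34 had 7275, 4788 and 6842 counts in WT and 5833, 3161 and 3707 in KO. Rpl34-ps1 then had 794, 5336 and 558 counts in WT and 6420, 3680 and 4257 in KO. Of the counts of Rpl34 and its copies together, Rpl34 held 41.8% to 46.6% in WT on water, 0.875% to 1.61% in KO on water, 88.9%, 46.9% and 90.9% in WT after DSS and 45.6% to 47.1% in KO after DSS. The libraries thus fell at 3 levels, and the library labelled KO water replicate 1 was with the other KO water libraries, unlike in its Smad4 counts.

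In edgeR, Rpl34 had a log2 fold change of -5.63 ± 0.34 in KO against WT on water (adjusted p = 3.5e-07), 5.20 ± 0.34 for DSS in KO (adjusted p = 1.2e-06) and 5.25 ± 0.46 for the difference of responses (adjusted p = 6.5e-05). With the counts of near-identical copies added to its own, the same values were -0.55 (adjusted p = 0.20), 0.05 (adjusted p = 0.98) and 0.83 (adjusted p = 0.67), and no gene was called for the difference of responses. The summed change on water was thus close to that of the other members.

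Similar shifts between a gene and its copies were found for other members. Near-identical copies (at least 90% identity over at least 100 bases and 50% of the copy) were found as 354 other genes or pseudogenes for 70 members, Rpl34 included. In 53 of the 70 the share of counts on the member's own gene varied by less than 10 percentage points over the 14 libraries, and in 4 (Rpl34, Rps18, Rpl30 and Rps2) by more than 50. These 4 were singled out after their values were seen.

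Rps2, a small subunit protein near the mRNA entrance, had 21088 and 18900 raw counts in WT water replicates 1 and 2 but 308 and 341 in replicates 3 and 4. It had 284 to 634 in the 4 KO water libraries, 441, 474 and 15409 in WT after DSS and 629, 12173 and 12087 in KO after DSS. Every group except KO on water thus held libraries of both kinds. The share of counts on Rps2 itself was 58.7% to 60.7% in the 5 libraries of high counts and 2.06% to 5.02% in the other 9, with the rest on its copies, Rps2-ps10 and Rps2-ps13 among them. Its log2 fold change on water was -4.23 ± 1.28 (adjusted p = 0.052 in edgeR), and with copies added -0.86 ± 0.20 (adjusted p = 0.030). For DSS in KO the values were 4.21 ± 1.32 (adjusted p = 0.44) and, with copies added, 0.54 ± 0.21 (adjusted p = 0.53).

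Rps18, which lies in the head of the small subunit, had 26361, 933, 12756 and 5955 raw counts in WT on water. Its copy Gm11361 on chromosome 13 had 223, 6090, 107 and 1855 counts in the same libraries. The 2 sequences differ at 4 of 511 bases, 3 of them in the coding part, and 2 of these places follow, with the differing base in capitals (mm9, chr17:34089454-34089483 and chr17:34089198-34089227 for Rps18, chr13:28349660-28349689 and chr13:28349826-28349855 for Gm11361).
Rps18, place 3: caccaagagggctggAgaactcacggagga
Gm11361, place 3: caccaagagggctggCgaactcacggagga
Rps18, place 4: cgtgaggacctggagAggctgaagaaaatt
Gm11361, place 4: cgtgaggacctggagCggctgaagaaaatt
The share of counts on Rps18 was 13.3% in WT water replicate 2, 76.2% to 82.4% in 5 libraries of all 4 groups and 98.9% to 99.2% in the other 8. With copies added to every member, 23 members and 1242 of all genes were called on water, the 21 above among them. The median of the members was -0.70.

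**Figure D5:**
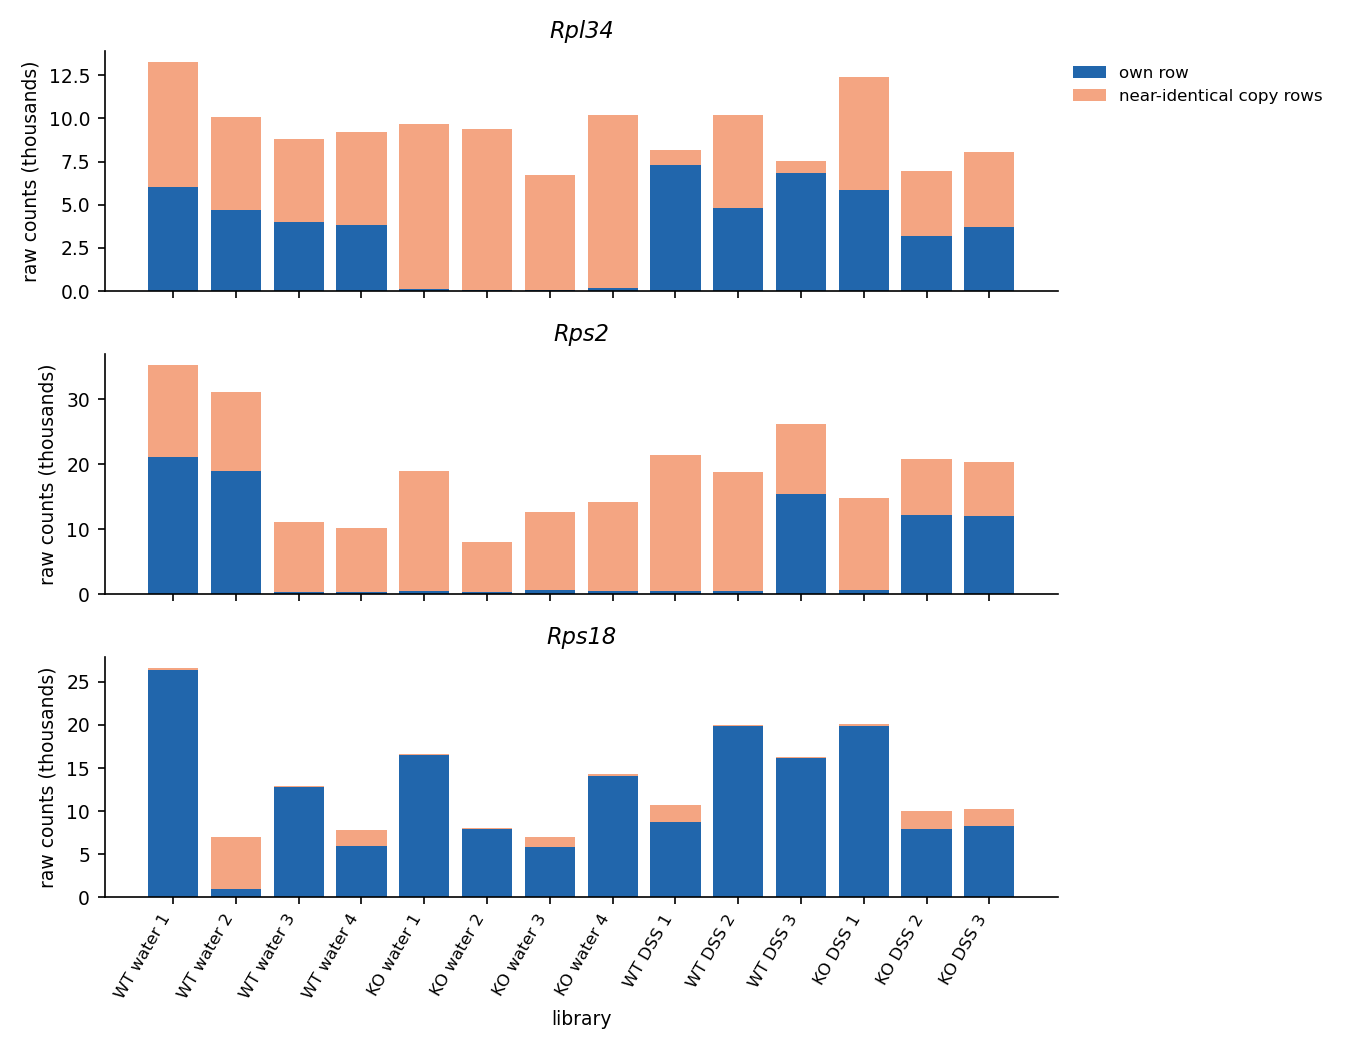
Raw counts (axis in units of 1000) on Rpl34, Rps2 and Rps18 themselves (blue) and on their near-identical copies (orange) in each of 14 libraries. The blue part of Rpl34 is at most 1.61% of the bar in the 4 KO water libraries, and that of Rps2 at most 5.02% in 9 libraries.

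Over the 14 libraries, most members followed their common mean. By Pearson correlation with the mean log2 CPM of the members, leaving out the gene itself, Rps19 (0.995), Rpl13a (0.984), Rpl24 (0.984), Rpl37a (0.982) and Rpl36 (0.982) were the most alike, and Rps2 (-0.09), Rps4y2 (0.04), Rps18 (0.25) and Rpl7a (0.27) the least. Among genes that are not members, D8Ertd738e (0.982), 6720456B07Rik (0.972), Fau (0.971), Fis1 (0.967) and Uqcrq (0.966) had the most similar pattern. All these values share the libraries and their depth and composition, so they describe these 14 libraries.

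Other genes of the ribosome and of its assembly were counted in the same way on water. The 4 ribosomal proteins outside the naming rule, Fau and Gnb2l1 (also called Rack1) among them, were all lower, with a median of -0.53, and 1 was called, Fau, which encodes a ubiquitin-like protein fused to a small subunit protein (log2 fold change -1.05 ± 0.30, adjusted p = 0.044 in edgeR). Of 76 tested mitochondrial ribosomal protein genes, 5 fell and 0 rose, 64 were negative, and the median was -0.25. Mrpl14 had the largest of these changes (-0.77 ± 0.19, adjusted p = 0.033 in edgeR). Of these genes 6.58% were called, against 26.6% of the cytosolic members and 8.44% of all genes, and the differences were not tested.

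Of 42 tested ribosome assembly factors, 4 rose and 0 fell in KO on water (9.52%, against 8.44% of all genes called), with a median of 0.06. Among them Heatr1, needed for processing of the ribosomal RNA precursor, rose by a log2 fold change of 0.71 ± 0.14 (adjusted p = 0.021 in edgeR). Ddx21, a nucleolar helicase, rose by 0.61 ± 0.16 (adjusted p = 0.036). Of 20 translation factors, 1 rose (Eif2s3x, 0.77 ± 0.19, adjusted p = 0.033) and 2 fell, the initiation factor subunits Eif3k (-0.62 ± 0.18) and Eif3f (-0.53 ± 0.15), both with an adjusted p of 0.043 to 0.044. Of 12 RNA polymerase I genes 1 fell, Taf1c, and of 16 regulators of ribosome synthesis 1 rose, Larp4, and 2 fell, Rps6kb2 and Maf1. The 7 snoRNA host genes, whose spliced RNAs carry the same oligopyrimidine start, were not called, with 6 negative and a median of -0.30.

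Some cell type markers moved in the same comparison, in which 8.44% of all genes were called (731 higher and 545 lower of 15127). Of 6 stem cell markers, Lgr5 (0.92 ± 0.24, adjusted p = 0.036 in edgeR) and Smoc2 (0.89 ± 0.17, adjusted p = 0.021) rose and the other 4 were negative without passing the test, with a list median of -0.32. Ascl2, a stem cell transcription factor, had the largest change of the list in size (-1.31 ± 0.40, adjusted p = 0.051). Of 7 colonocyte markers 1 fell, Car1 (-0.98 ± 0.25, adjusted p = 0.035 in edgeR), and 5 were negative, with a list median of -0.36. Their sum did not overlap on water, at 3390 to 4477 CPM in WT and 2226 to 3163 CPM in KO. Of 7 goblet cell markers 0 were called and 6 were negative, with a list median of -0.61. Their sum overlapped, at 10357 to 21982 CPM in WT and 12749 to 15667 CPM in KO. None of the 7 proliferation markers was called, and all 7 were positive, with a list median of 0.22. Of 4 tested fibroblast markers 2 rose, Col1a2 and Dcn, with the sum of the 6 listed markers at 0.896 to 4.06 CPM in WT and 2.98 to 24.8 CPM in KO on water, and Lum at 0 in 6 of these 8 libraries. The part of these in the change of ribosomal protein genes was not tested.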

How the data were processed

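PolyA RNA-seq libraries of 14 colon epithelium samples were analysed from the deposited raw counts per gene. Per the study's methods and the submitters' processing notes, the authors aligned reads with HISAT2 to mm9 and counted them with featureCounts; strand and multi-mapping settings were not given in the sources used here, so reads shared by near-identical genes may have been assigned to either. Library totals were 12882827 to 26087231 counts.

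The test covered the 15127 genes that reached 10 counts in 3 or more libraries. The main test was edgeR's quasi-likelihood test (edgeR 4.0.16, R 4.3.3) on all 14 libraries with TMM scaling and Benjamini-Hochberg adjustment over all genes tested, called at an adjusted p below 0.05. DESeq2 1.42.0 was an alternative. The study's methods used DESeq2 pairwise. Data were simulated for KO against WT on water over 15127 genes, each drawn independently, without shifts shared by a whole library. On them edgeR recovered 51 of 99 genes changed by a log2 size of 1 and 71 of 98 changed by 2, with 7 false calls. DESeq2 on the 14 libraries recovered 69 and 79 of the same genes, with 28 false calls. p-values measure the spread between these libraries, since no source says how many animals each one holds. Replicate libraries differed beyond counting noise (chi-square per degree of freedom 11.9 to 271), so none was counted as a duplicate.

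Near-identical copies were found by BLAST+ 2.17.0 of mm9 transcripts. Sequences at transcript starts came from RefSeq (GRCm38.p6). Correlations used log2(CPM + 0.5). The genes named are the called members with the largest changes, the extremes of each comparison and of the levels, the paralogs with their partners, a set of well-known members, Rpl34 and its copies, and the leading genes of each other list. Values of some genes that this rule names are not reported here. The members and lists were chosen with earlier results of these data known. Other settings were other scalings, no filter, DESeq2, only the groups compared, blocks, covariates and libraries left out; the fits with added copies, with the mitochondrial share, without trends in length and GC content, and without sets of water libraries were added after seeing the data.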

Additional observations from a re-analysis of the deposited data

Results flagged for a closer look

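In 5 of 160 groups of 4 water libraries (3.12%), 1 library lay so far from its nearest neighbour that the gap, as a part of the group's range, passed Dixon's 95% critical value, where chance gives about 1 in 20. Rps14 was at 1351 CPM in WT water replicate 4 and at 919 to 963 CPM in the other WT water libraries. Rps18 was at 41.4 CPM in WT water replicate 2, the library in which its copy Gm11361 had 6090 counts. KO water replicate 3, the library with the lowest ribosomal protein share, was the lowest for the other 3, with Rpl19 at 461 CPM, Rps25 at 309 CPM and Rps6 at 594 CPM.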

How the results depend on the processing

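For KO against WT on water, the 21 members called (1276 of all genes) became 36 with no filter (1404 of all genes). They became 55 in DESeq2 on all libraries (2659 of all genes) and 46 with the name letters as a block (2018). The count was 0 in edgeR on only the 2 groups (1 of all genes) and with the mitochondrial share as a covariate (8). It was also 0 with length and GC trends removed (29) and without WT water replicates 3 and 4 (1). Without these and KO water replicate 1 it was 0 too (139). Leaving out single libraries gave 0 to 57 members and medians of -0.83 to -0.50. The median was -0.38 without WT water replicates 3 and 4. All 21 called members remained lower in every setting. For DSS in WT, DESeq2 called 19 (all libraries, 851 of all genes) and 56 (only the 2 groups, 1789 of all genes). The median was -0.25 with the name letters as a block, -0.25 among libraries named with D and -0.26 with the mitochondrial share. For DSS in KO, DESeq2 called 1 and 2 members (70 of all genes in each). The median was 0.48 with the name letters as a block. No letters hold both KO groups, so that value comes by way of WT water libraries. These share D with KO after DSS, and Z and MP with KO on water. Over single libraries left out, the median for DSS in KO ranged from -0.01 (without KO DSS replicate 1, -0.0087) to 0.30. For KO against WT after DSS, DESeq2 on only the 2 groups called 1 (492 of all genes). The median was -0.067 (without KO DSS replicate 1) to 0.21 over single libraries left out. The median difference of responses was 0.47 without WT water replicates 3 and 4. The causes of these shifts were not tested.

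Libraries were not paired by replicate number in the main test. Same-numbered libraries deviated from their group means with correlations from -0.107 to 0.415. The highest was that of WT and KO water replicates 4, whose names share the letters MP, and the next was 0.189. With the replicate number as a block, 51 members and 2977 of all genes were called on water, and the number called in the other comparisons stayed at 0.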
